A study of Mus musculus with 4 samples.

Results

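The 10 genes described here encode receptors, ligands, the nuclear effector and target genes of the Notch pathway, and were chosen by gene symbol among the 27933 genes of the count tables. They are the receptors Notch1, Notch2 and Notch3, the ligands Jag1, Jag2 and Dll1, the DNA-binding effector Rbpj, and the target genes Hes1, Hey1 and Nrarp. Gene expression had been profiled by RNA-seq in melanocyte stem cells, the reserve of pigment cells in the hair follicle, sorted by flow cytometry from mouse skin. The stressed group (n = 2 libraries) came from mice given RTX, which the labels name by this abbreviation alone, and the control group (n = 2 libraries) from mice given saline. All cells were harvested 12 h after injection. The title of the series concerns the loss of these stem cells after strong activation of sympathetic nerves, and the design holds the 1 comparison of stressed with control cells. Strain, age and sex of the mice, and whether libraries came from separate animals, are not given in the sources used here, so the p-values measure the spread between libraries, which may be partly technical.

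Notch signalling passes between touching cells. A ligand of the Jagged or Delta-like family on one cell binds a Notch receptor on its neighbour, the receptor is cut first by the ADAM10 protease and then by gamma-secretase, and the freed intracellular domain joins RBPJ on DNA to switch on genes of the HES and HEY repressor families. In mouse melanoblasts and melanocyte stem cells, loss of Rbpj or of Notch receptors is known to deplete the lineage and to grey the coat, and Hes1 is known to support melanoblast survival. Keratinocytes, the neighbours of these cells in the follicle, also express Notch receptors and Jagged ligands.

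The ligands Dll1 and Jag2 had the lowest log2 fold changes of the 10 genes, stressed over control. Jag2 stood at 0.443 of its control level in stressed cells. For Dll1 and Jag1, and likewise for Notch2 and Notch3, each stressed library was under each control library. Notch1, the most abundant receptor, had nearly equal means, and the groups overlapped for Rbpj, Hes1, Hey1 and Nrarp. No member passed the quasi-likelihood test of edgeR over all genes, and Jag2 alone passed the DESeq2 Wald test. In all, 9 of the 10 genes had a log2 fold change below 0, against 50.9% of all tested genes, with a median of -0.45 over the 10 genes and of -0.0091 over all tested genes.

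Between 9273652 and 11854280 reads were assigned to genes in a library, and 3 counts, the most that a count of 0 allows, corresponded to between 0.253 and 0.323 CPM (counts scaled to a common library total), a limit that covers counting error only. The pigment cell gene Dct was the leading melanocyte marker, at 15925 and 13834 CPM in stressed libraries and 9776 and 11110 CPM in control libraries, and all 12 melanocyte markers passed the filter on low counts. The 17 keratinocyte markers summed to 12940 and 11187 CPM in stressed libraries and to 31514 and 19443 CPM in control libraries. Their leading gene, Krt14, stood at 1769 and 1149 CPM in stressed and at 4645 and 2326 CPM in control libraries. Summed fibroblast markers and summed immune markers were each at no more than 43.0 CPM in any library. Mitochondrial genes took 0.479% and 0.405% of the counts in stressed libraries and 0.906% and 2.07% in control libraries. Replicates differed by over 2-fold in 613 genes in stressed and in 1417 genes in control cells. All 10 Notch genes passed the filter, which kept 13348 genes, and edgeR called 0% of these at a Benjamini-Hochberg adjusted p below 0.05. At an unadjusted p below 0.05 by edgeR stood 1705 genes or 12.8%, and 3 of the 10 Notch genes, all lower, as were 7.6% of all tested genes. DESeq2 called 589 of the 13089 genes to which it gave an adjusted p, or 4.5%, and limma-voom called 0%, although 1700 genes had an unadjusted p below 0.05 by it.

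Promoter sequences of the ligand genes Jag2 and Dll1 are shown because these genes had the lowest log2 fold changes, and that of Nrarp because it is the target gene with a sequence in the RefSeq promoter table of build GRCm38.p6, the assembly of mm10. Each sequence is the 250 bases before a start annotated by RefSeq, and capitals mark CACNAG on either strand, the N-box letters bound by HES repressors. The windows of Jag2 and Nrarp adjoin the genes as annotated in the count tables. For Dll1 the table holds 2 windows, of which the one shown lies shortly upstream of the gene as the count tables annotate it, while the other lies within it.
Jag2 (chr12:112929496-112929745, minus strand): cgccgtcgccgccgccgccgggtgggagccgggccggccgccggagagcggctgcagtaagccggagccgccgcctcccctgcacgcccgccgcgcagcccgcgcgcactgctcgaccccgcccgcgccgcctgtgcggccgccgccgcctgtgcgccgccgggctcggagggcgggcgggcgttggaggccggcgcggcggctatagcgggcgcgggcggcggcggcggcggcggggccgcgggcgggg
Dll1 (chr17:15376933-15377182, minus strand): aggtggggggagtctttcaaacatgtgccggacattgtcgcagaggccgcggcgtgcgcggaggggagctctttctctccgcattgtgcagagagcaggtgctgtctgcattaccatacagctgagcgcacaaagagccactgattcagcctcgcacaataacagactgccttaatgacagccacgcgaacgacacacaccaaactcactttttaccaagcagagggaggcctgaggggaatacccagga
Nrarp (chr2:25180508-25180757, plus strand): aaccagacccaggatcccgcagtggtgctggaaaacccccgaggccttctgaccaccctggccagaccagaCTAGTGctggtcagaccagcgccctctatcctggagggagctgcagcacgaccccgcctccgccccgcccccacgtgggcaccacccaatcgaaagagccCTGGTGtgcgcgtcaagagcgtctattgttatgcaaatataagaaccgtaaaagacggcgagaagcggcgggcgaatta
The Jag2 sequence was 87.2% G or C and held 54 CpG pairs, against a median of 52.4% and 6 pairs over 32851 such windows of the table. The same letters were searched in the 10 windows that the table holds for 8 of the 10 genes. Windows were not found there for Hes1 and Hey1. GTGGGAA, the letters of a strong RBPJ site, was in none of the 10 windows and in 5.42% of all windows, on either strand. Its shorter core TGGGAA, which every GTGGGAA also holds, was in windows of Rbpj alone and in 21.59% of all windows. CACNAG was found for Notch1, Notch2, Notch3 and Nrarp, and in 36.67% of all windows. These letters say nothing of whether a factor binds.

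Levels were compared between genes in CPM per kilobase of annotated exon. This scale takes all annotated exons of a gene, whichever of its transcripts the cells held, so the order between genes is approximate. On it Hes1 had the highest level of the 10 genes in each library. It averaged 62.5 CPM per kb in stressed and 74.2 CPM per kb in control cells. Among receptors the order was Notch1, Notch2, Notch3 in each library, and among ligands Jag2, Jag1, Dll1. Jag2 was the second of the 10 genes in control cells, with libraries at 32.8 and 28.8 CPM per kb, above those of Notch1 at 13.9 and 16.5 CPM per kb. In stressed cells Jag2 was the third, with libraries at 13.2 and 14.1 CPM per kb, just under those of Notch1 at 14.4 and 14.7 CPM per kb. The lowest level belonged to Rbpj, at 1.06 CPM per kb in stressed and 1.51 CPM per kb in control cells. In stressed cells the libraries of neighbours in the order overlapped for Nrarp and Notch2, and in the run from Hey1 over Dll1 and Notch3 to Rbpj. In control cells they overlapped for Notch1 and Jag1, and in the run from Notch2 over Nrarp, Dll1 and Hey1 to Notch3.

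**Figure D1:**
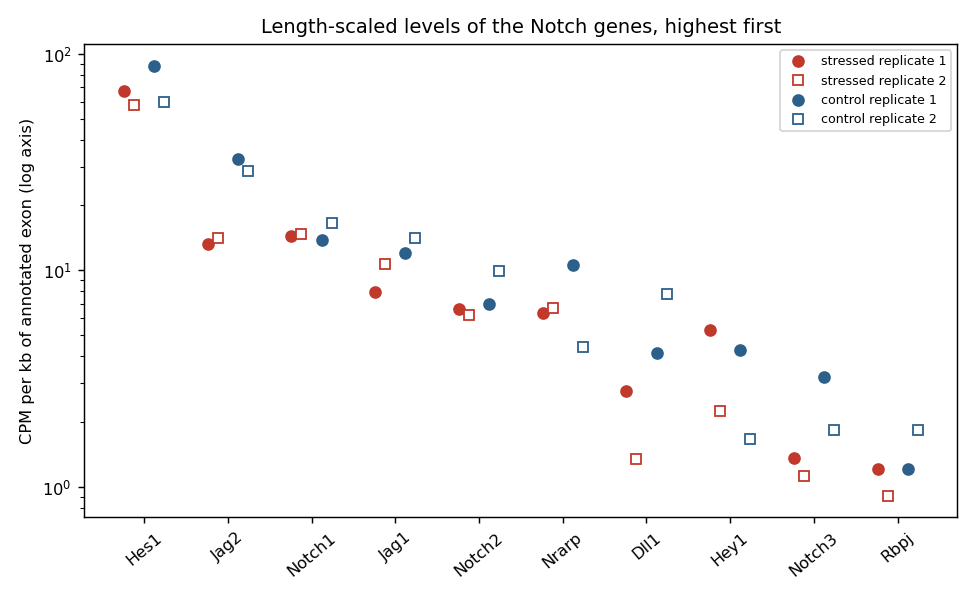
Level of each of the 10 Notch genes in each library, in CPM per kilobase of annotated exon on a log axis, genes ordered by their mean over the 4 libraries. Hes1 is highest in each library, and the Jag2 points of the stressed libraries, at 13.2 and 14.1, lie apart from those of the control libraries, at 32.8 and 28.8.

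Among the ligands, Jag2 (chromosome 12, 112908590-112929495, minus strand, mm10), which encodes a Jagged ligand that spans the membrane, was at 53.6 and 57.1 CPM in stressed libraries and at 133 and 117 CPM in control libraries. Both stressed libraries lay well under both control libraries, and the members of each pair were close. The means were 55.4 ± 2.5 CPM in stressed and 125 ± 11 CPM in control cells (SD, n = 2), a ratio of 0.443. On the log2 scale the difference was -1.17 (SE 0.18, 95% interval -1.60 to -0.75). Its edgeR adjusted p was 0.121, with rank 48 among the 13348 genes by p, and the DESeq2 adjusted p was 8.38e-05. Jag2 thus fell by DESeq2, as did 356 genes or 2.72% of all. That call was not made without stressed replicate 1 (DESeq2 adjusted p = 0.214) or without stressed replicate 2 (DESeq2 adjusted p = 0.252). By edgeR, leaving out control replicate 1 gave a log2 difference of -1.07, and leaving out control replicate 2 gave -1.26. The spread in these fits came from the stressed pair alone, so no call is drawn from them. As these are bulk libraries, fewer cells that express a gene and less of its RNA per cell cannot be told apart.

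Dll1 (chromosome 17, 15367354-15376872, minus strand), which encodes a Delta-like ligand, was at 11.7 and 5.64 CPM in stressed libraries and at 17.6 and 32.9 CPM in control libraries. The groups did not overlap, but the libraries of each group were far apart. In the stressed pair the counting intervals, 9.77 to 14.0 and 4.32 to 7.23 CPM, did not meet. Its log2 fold change, the lowest of the 10 genes, was -1.54 (SE 0.48, edgeR adjusted p = 0.27, DESeq2 adjusted p = 0.0658). Without control replicate 1 the log2 fold change was -1.91 by either tool. Without control replicate 2 the log2 fold change was -1.01.

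Jag1 (chromosome 2, 137081456-137116644, minus strand), which encodes the other Jagged ligand, was at 46.1 and 62.4 CPM in stressed libraries and at 69.7 and 82.3 CPM in control libraries. The upper stressed library came close to the lower control library without reaching it. Its log2 difference was -0.49 (SE 0.22, edgeR adjusted p = 0.43), with -0.28 when stressed replicate 1 was left out and -0.71 when stressed replicate 2 was.

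Summed over the 3 ligands, the length-scaled level was 23.9 and 26.1 CPM per kb in stressed libraries, against 49.0 and 50.8 CPM per kb in control libraries. Jag2 made up 55.3% and 53.9% of that sum in stressed libraries and 67.0% and 56.8% in control libraries. The ratio of Jag2 to Jag1 per kb, which does not depend on library scaling, was 1.67 and 1.32 in stressed libraries and 2.74 and 2.04 in control libraries, so that the balance between the Jagged ligands lay lower in both stressed libraries.

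**Figure D2:**
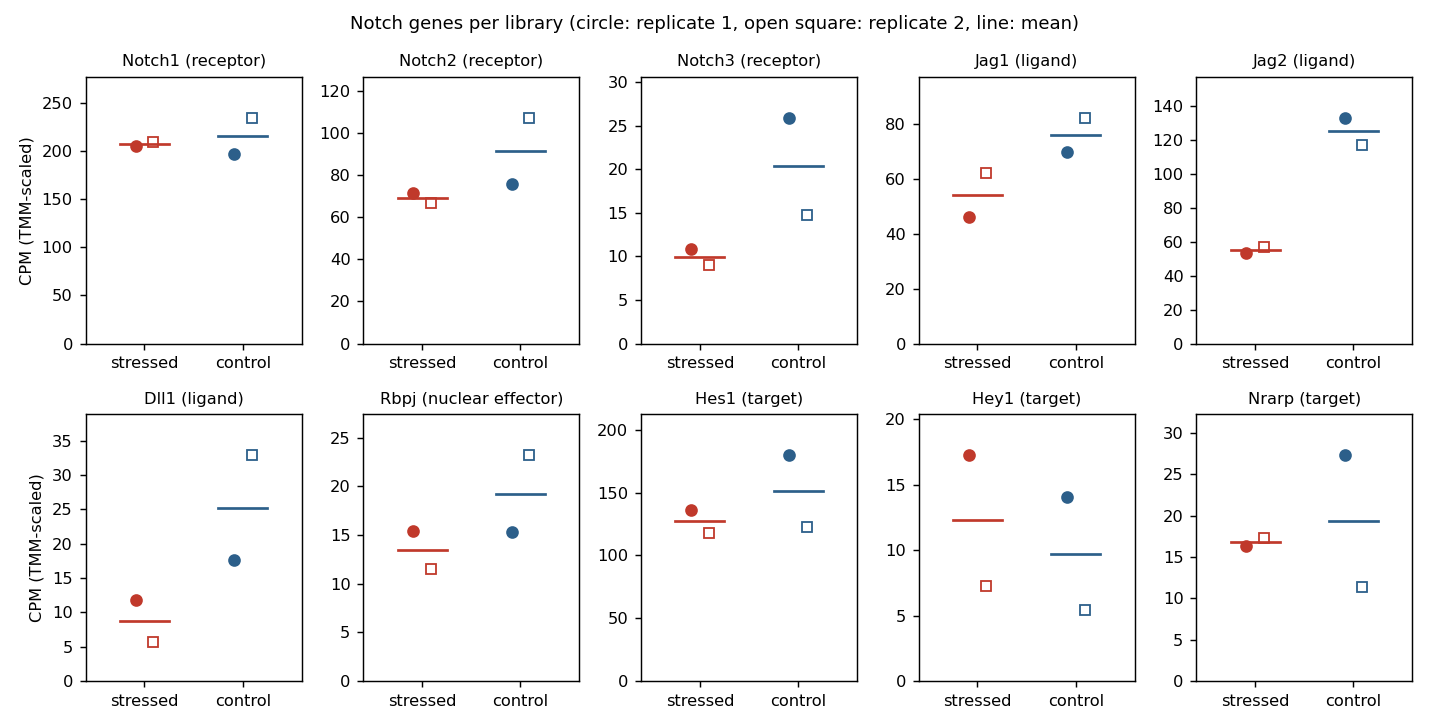
CPM of each Notch gene by library, each axis starting at 0, with replicate 1 as a circle, replicate 2 as an open square and the group mean as a line. The groups do not overlap for Notch2, Notch3, Jag1, Jag2 and Dll1, and overlap for the other 5 genes.

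Of the receptors, Notch1 (chromosome 2, 26457903-26516663, minus strand) was at 205 and 209 CPM in stressed libraries and at 197 and 234 CPM in control libraries. Both stressed libraries lay between the control libraries. The difference was -0.059 on the log2 scale (SE 0.19, edgeR adjusted p = 0.941). Its 95% interval, -0.51 to 0.39, spans from 0.704 to 1.31 times the control level.

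Notch2 (chromosome 3, 98013527-98150361, plus strand), a second receptor with the same general build, was at 71.5 and 66.7 CPM in stressed libraries and at 75.6 and 107 CPM in control libraries. Control replicate 2 stood above the other libraries, which were close together. A log2 fold change of -0.41 (SE 0.22, edgeR adjusted p = 0.51) became -0.13 without control replicate 2 and -0.62 without control replicate 1.

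Notch3 (chromosome 17, 32120820-32166880, minus strand), a receptor best known from the mural cells of blood vessels, was at 10.9 and 9.0 CPM in stressed libraries and at 25.9 and 14.7 CPM in control libraries. Control replicate 1 stood high, and control replicate 2 was nearer to the stressed pair. Its log2 difference was -1.03 (SE 0.37, edgeR adjusted p = 0.326), with -0.55 when control replicate 1 was left out and -1.38 when control replicate 2 was. Of the 7 mural cell markers, Rgs5, Pdgfrb, Des, Acta2 and Tagln were each under 2 CPM in each library. Myh11 was at 5.44 and 9.73 CPM in stressed libraries and at 3.96 and 2.54 CPM in control libraries. The list's leading gene, Cspg4, was at 162 and 250.2 CPM in stressed libraries and at 64.0 and 74.0 CPM in control libraries. Which cells the Notch3 reads came from was not tested. The 8 endothelial markers summed to 1.88 and 3.18 CPM in stressed and 7.39 and 1.19 CPM in control libraries, with Cdh5 and Cldn5 at 0 counts in each.

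Notch1 made up 64.3% and 66.8% of the length-scaled receptor sum in stressed libraries and 57.5% and 58.3% in control libraries. The ratio of Notch1 to Notch2 per kb was 2.17 and 2.38 in stressed libraries and 1.98 and 1.65 in control libraries. Relative to the other receptors Notch1 thus stood higher in both stressed libraries, although its own level overlapped.

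Rbpj (chromosome 5, 53466152-53657362, plus strand), which encodes the DNA-binding protein through which all Notch receptors signal, was at 15.4 and 11.5 CPM in stressed libraries and at 15.3 and 23.2 CPM in control libraries. Stressed replicate 1 and control replicate 1 were level, and the groups overlapped. The difference was -0.52 on the log2 scale (SE 0.34, edgeR adjusted p = 0.59), with -0.18 when control replicate 2 was left out and -0.77 when control replicate 1 was.

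The target genes did not separate the groups. Hes1 (chromosome 16, 30064384-30067796, plus strand), which encodes a repressor of the basic helix-loop-helix class and is a direct target of Notch in many tissues, was at 137 and 118 CPM in stressed libraries and at 180.0 and 123 CPM in control libraries. Stressed replicate 1 lay above control replicate 2, and control replicate 1 stood apart above the rest. Its log2 difference was -0.25 (SE 0.24, 95% interval -0.82 to 0.32, edgeR adjusted p = 0.729) and turned to 0.068 without control replicate 1.

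Hey1 (chromosome 3, 8663359-8667256, minus strand), which encodes a related repressor, was at 17.3 and 7.27 CPM in stressed libraries and at 14.0 and 5.42 CPM in control libraries. In each group replicate 1 was far above replicate 2, so that the spread within the groups exceeded the difference between them. Hey1 alone of the 10 genes had a log2 difference above 0, at 0.34 (SE 0.60, 95% interval -1.11 to 1.79, edgeR adjusted p = 0.876). Leaving out stressed replicate 1 gave -0.41, leaving out control replicate 2 gave -0.19, and leaving out control replicate 1 gave 1.19.

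Nrarp (chromosome 2, 25180758-25183339, plus strand), which encodes a small ankyrin repeat protein that is induced by Notch and dampens it, was at 16.3 and 17.3 CPM in stressed libraries and at 27.3 and 11.4 CPM in control libraries. Both stressed libraries lay between the control libraries. The difference was -0.20 on the log2 scale (SE 0.44, 95% interval -1.25 to 0.86, edgeR adjusted p = 0.908) and turned to 0.58 without control replicate 1. Summed per kb, the 3 targets were at 78.7 and 66.8 CPM in stressed libraries and at 103 and 66.2 CPM in control libraries.

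**Figure D3:**
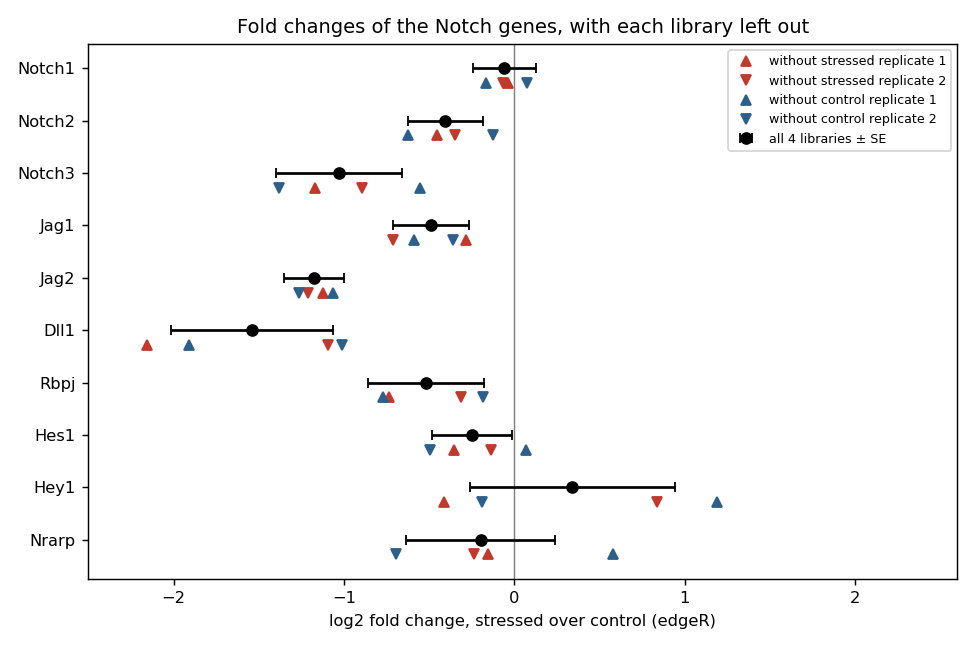
Log2 fold change of each Notch gene, stressed over control, from edgeR with all 4 libraries (black, with SE bars) and with 1 library left out in turn (triangles). Jag2 stays between -1.26 and -1.07, while Notch1, Hes1, Hey1 and Nrarp have values on both sides of 0.

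The groups did not overlap for 5 of the 10 genes, against 44.7% of all tested genes. All 5 were lower in stressed cells, against 22.9% of all tested genes lower and 21.8% higher. Exons of Notch3, Dll1 and Nrarp overlap the opposite-strand genes Gm17276, A930024N18Rik and Gm38287, which had at most 3 counts in any library, and counting used no strand option.

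Between the groups, the keratinocyte markers differed in the same direction as the lower Notch genes. Within the groups they did not run together throughout. In the control pair, replicate 2 had the smaller marker sum and less Jag2 and Notch3, but more Jag1, Dll1 and Notch2. In the stressed pair, replicate 2 had the smaller marker sum and less Dll1, Notch2 and Notch3, but more Jag1 and Jag2. All 17 keratinocyte markers had a log2 fold change below 0, against 50.9% of all tested genes, with a median of -1.07. Dsg3 and Cdh1 lay near 0, at -0.0043 and -0.031. DESeq2 called 8 of the 17 lower, against 2.72% of all genes. In 12 both stressed libraries were under both control libraries, against 22.9% of all tested genes. Set against the summed markers of the same library, Jag2 was at 4.14 and 5.10 CPM per 1000 CPM of keratinocyte markers in stressed libraries and at 4.22 and 6.01 in control libraries, so that the groups overlapped. Notch3 stood at 0.841 and 0.805 on that scale in stressed libraries and at 0.823 and 0.758 in control libraries, and Jag1, Dll1 and Rbpj also overlapped. Hes1 stood at 10.6 and 10.5 in stressed libraries and at 5.71 and 6.30 in control libraries. Notch1, Hey1 and Nrarp were likewise higher in both stressed libraries on that scale. The marker sum was itself lower in both stressed libraries, so a gene with level CPM, such as Notch1, also comes out higher on it. In CPM, Hes1, Notch1, Hey1 and Nrarp overlapped between the groups. The share of all tested genes that were higher on that scale was not computed. Notch2 was at 5.53 and 5.96 in stressed libraries and at 2.40 and 5.52 in control libraries. Its stressed replicate 1 and control replicate 2 were thus nearly level. Of the 12 melanocyte markers, 9 were higher in both stressed libraries, against 21.8% of all tested genes, and Mitf, Sox10 and Ednrb overlapped between the groups. The sum of the 12 was 40650 and 38152 CPM in stressed libraries and 23273 and 22108 CPM in control libraries. Set against that sum, 9 of the 10 Notch genes were lower in both stressed libraries, with Hey1 the exception. As the sum itself was higher in both stressed libraries, a gene with level CPM also comes out lower on this scale, as Notch1 did. How large a share of all tested genes did so was not computed. Of the 5 tested Schwann cell and nerve markers, 2 were lower in both stressed libraries, against 22.9% of all tested genes, and 3 overlapped. The 2, named after their values were seen, were Egr2, a transcription factor gene of myelination, at 248 and 199 CPM in stressed and 488 and 369 CPM in control libraries (DESeq2 adjusted p = 0.00643), and the myelin gene Mbp, at 23.2 and 12.8 CPM in stressed and 39.7 and 33.9 CPM in control libraries (DESeq2 adjusted p = 0.135). The mitochondrial share of counts was likewise lower in both stressed libraries. The part of the keratinocyte RNA, of the Schwann cell and nerve RNA and of the mitochondrial share in the lower values of the ligands and of Notch2 and Notch3 was not tested.

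**Figure D4:**
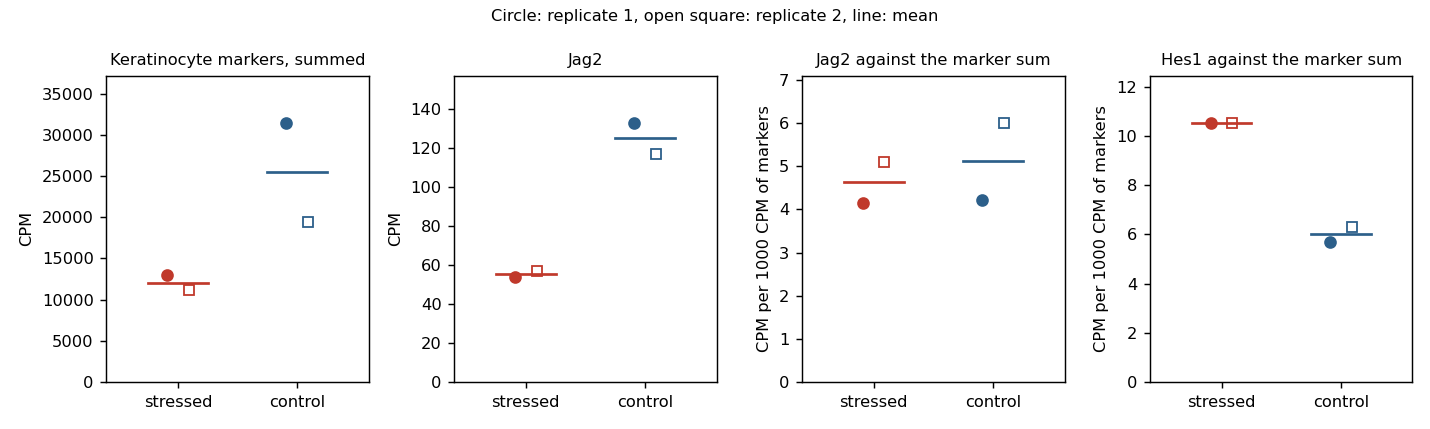
From left to right, the summed CPM of 17 keratinocyte markers, the CPM of Jag2, and the levels of Jag2 and of Hes1 per 1000 CPM of those markers, by library, with the group mean as a line. Jag2 overlaps between the groups once set against the markers, at 4.14 and 5.10 in stressed and 4.22 and 6.01 in control libraries. Hes1 lies higher in both stressed libraries on that scale. The marker sum is itself lower in both stressed libraries, and Hes1 in CPM overlaps between the groups.

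Beyond the 10 genes, a list of 60 further genes of the pathway was examined by role. Of these 49 passed the filter, and the other 11, among them the receptor gene Notch4 and the ligand genes Dll3, Dll4 and Dlk1, were at no more than 0.909 CPM in any library. No gene of the list was called by edgeR or limma-voom with all 4 libraries and the low-count filter. At an unadjusted edgeR p below 0.05 stood 8, with 5 higher and 3 lower, against 12.8% of all tested genes in either direction. DESeq2 called 1 lower and 1 higher, against 2.72% and 1.78% of all genes. In 20 of the 49 the stressed libraries were both above the control libraries, against 21.8% of all tested genes, and in 8 both were below, against 22.9%. The median log2 fold change was 0.13.

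The gene that DESeq2 called lower was Dlk2, which encodes a Delta-like protein without the receptor-binding domain of the classical ligands. It was at 6.01 and 6.46 CPM in stressed libraries and at 16.7 and 19.5 CPM in control libraries (log2 fold change -1.54, SE 0.32, edgeR adjusted p = 0.151, DESeq2 adjusted p = 0.0139). Both stressed libraries thus stood well under both control libraries, as for Jag2. The other 2 lower genes at an unadjusted edgeR p below 0.05 were named after their values were seen. They were Lfng, which encodes a glycosyltransferase that tunes the ligand preference of Notch, at 5.16 and 2.82 CPM in stressed and 12.6 and 10.3 CPM in control libraries, and Neurl1b, which encodes a ubiquitin ligase that acts on ligands, at 3.38 and 6.09 CPM in stressed and 14.2 and 11.8 CPM in control libraries.

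The gene that DESeq2 called higher was Adam10, which encodes the protease of the first receptor cut. It stood at 323 and 322 CPM in stressed libraries and at 216 and 183 CPM in control libraries (log2 fold change 0.69, SE 0.19, edgeR adjusted p = 0.234, DESeq2 adjusted p = 0.0223). Of the 10 receptor proteases, 5 were higher in both stressed libraries and 2 lower, against 21.8% and 22.9% of all tested genes. Besides Adam10 and Nedd4, the higher genes of the list at an unadjusted edgeR p below 0.05 were Aph1c, Dtx3 and Dtx3l, likewise named after their values were seen. Neither tool called any of them with all 4 libraries and the low-count filter. Aph1c, which encodes a subunit of gamma-secretase, was at 88.1 and 53.4 CPM in stressed libraries and at 39.1 and 34.3 CPM in control libraries (log2 fold change 0.95, SE 0.28). Dtx3, a Deltex family gene, was at 171 and 158 CPM in stressed and 105 and 125 CPM in control libraries, and Dtx3l, a related gene, at 51.9 and 65.9 CPM in stressed and 32.1 and 44.6 CPM in control libraries. The leading genes of the other roles were not called by either tool with all 4 libraries. Nedd4, a ubiquitin ligase gene of receptor turnover, was at 1732 and 1792 CPM in stressed libraries and at 1179 and 1254 CPM in control libraries (log2 fold change 0.53, SE 0.21, DESeq2 adjusted p = 0.0555). Ncor1, a corepressor gene, differed by 0.38 (SE 0.18), and Snw1, which encodes a nuclear cofactor of the Notch complex, by 0.17 (SE 0.18). Rfng, a fringe glycosyltransferase gene, differed by 0.29 (SE 0.20), the ligand ubiquitin ligase gene Mib2 by -0.21 (SE 0.18) and Hes6, which encodes an atypical HES protein, by 0.25 (SE 0.24).

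**Figure D5:**
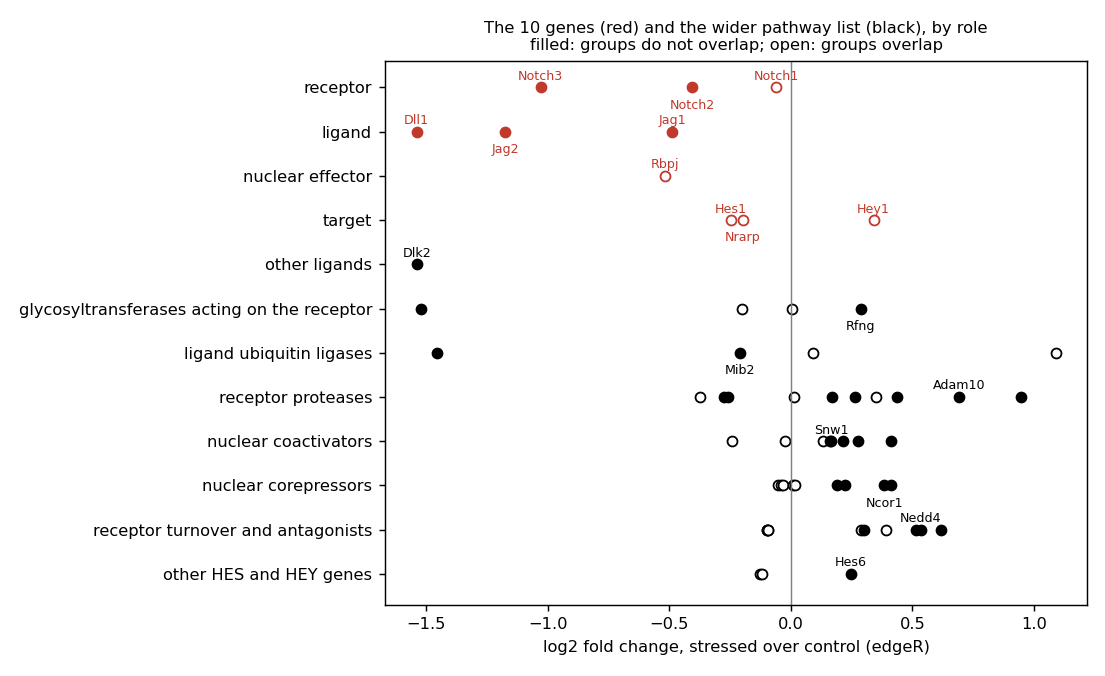
Log2 fold change, stressed over control, of the 10 Notch genes (red) and of the 49 tested genes of the wider list (black), by role. Filled points mark genes whose groups do not overlap, and the ligand row lies left of 0 while most coactivator, corepressor and protease points lie near or right of it.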

How the data were processed

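The deposited values are raw read counts. Per the file headers, the authors counted reads with featureCounts 1.6.1, with exons summed by gene name on mm10, at a minimum mapping quality of 30 and no strand option. Trim Galore 0.4.1, STAR 2.5.3 and DESeq2 1.22.2 are named in the submitters' processing notes. The protocol field of the labels names RTX for every sample, while the treatment label, followed here, gives saline for the controls. Per the file headers, the alignments of stressed replicates 1 and 2 carry the numbers 2 and 3. Those of control replicates 1 and 2 carry the numbers 1 and 2. Total counts were 10625688 and 11104039 in stressed and 9273652 and 11854280 in control libraries, and replicates differed beyond sampling noise (chi-square per degree of freedom 18.0 in the stressed and 54.0 in the control pair).

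The analysis used R 4.3.3. Low genes were removed by filterByExpr of edgeR 4.0.16 (minimum count 10), and libraries were scaled by TMM and compared with its two-sided quasi-likelihood F-test in a model of group alone, with Benjamini-Hochberg adjustment over all tested genes. CPM uses TMM-scaled totals. The SE is the size of the log2 fold change over the root of its F statistic, and 95% intervals use the fit's degrees of freedom. Counting intervals are exact Poisson intervals at 95% and cover counting error only. Alternatives were DESeq2 1.42.0 size factors and Wald test, upper-quartile scaling, 2 other filters, limma-voom (limma 3.58.1), a block for the replicate number, leaving out each library, and removal of the keratinocyte markers. A group with 1 library left takes its spread from the other group. The tests were tried on simulated data. The members and lists were chosen with earlier results of these data known. The text names the 10 genes, the most abundant tested gene of each role of the wider list, and further genes of that list called by edgeR or DESeq2, or with a mean of at least 10 CPM, a log2 fold change of at least 1 in size and groups that do not overlap. It also names the most abundant gene of the melanocyte, keratinocyte and mural cell marker lists. That of the other marker lists is not reported here. Genes outside this rule were named after their values were seen: Lfng, Neurl1b, Aph1c, Dtx3, Dtx3l and single markers other than the most abundant.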

Additional observations from a re-analysis of the deposited data

How the results depend on the processing

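Of 160 log2 fold changes recomputed for the 10 genes, 141 kept their sign and their side of the threshold. The edgeR count of 0 genes became 760, out of 18926 tested, with no low-count filter. Called there were 2 of the 10 genes (Jag2 at -1.17 and Dll1 at -1.54) and 2 of the wider list (Aph1c at 0.95 and Dlk2 at -1.54). By DESeq2 it was 589, with Jag2 (-1.17) and 2 of the wider list. With 1 library left out, edgeR called between 0 and 739 genes (628 without control replicate 1, 739 without control replicate 2) and DESeq2 called 144 and 47 without stressed replicates 1 and 2, and 477 and 800 without control replicates 1 and 2. Of these, 0 to 2 were among the 10 genes and 0 to 2 in the wider list, in which DESeq2 called 1 with control replicate 1 left out and 1 with control replicate 2 left out. The log2 fold change then ranged from -1.26 to -1.07 for Jag2, from -2.16 to -1.01 for Dll1 (-1.91 by either tool without control replicate 1), from -0.17 to 0.075 for Notch1, from -0.50 to 0.068 for Hes1, from -0.41 to 1.19 for Hey1 and from -0.70 to 0.58 for Nrarp. The sign turned without control replicate 2 for Notch1 (0.074 by edgeR, 0.075 by DESeq2) and Hey1 (-0.19 by either), without control replicate 1 for Hes1 (0.068 and 0.060) and Nrarp (0.58 and 0.57), and without stressed replicate 1 for Hey1 (-0.41 by either); the cause was not tested. Across genes, the differences between replicates 1 and 2 of the 2 groups correlated at 0.173, and the labels tie no number to an animal or day. With the replicate block edgeR again called 0 genes, with Jag2 at an adjusted p of 0.0791. That block and the correlation follow the replicate numbers of the sample titles. The alignment numbers instead share a number between stressed replicate 1 and control replicate 2, and a block by them was not fitted. With 2 libraries a group, the 95% intervals of Notch1, Notch2, Jag1, Rbpj, Hes1, Hey1 and Nrarp include 0.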
